A study of Mus musculus with 59 samples.

Results

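The transcripts examined here are Trp53 and a set of 9 genes known as targets or partners of the p53 transcription factor in mouse blood progenitors: Cdkn1a, Mdm2, Bax, Bbc3, Pmaip1, Ccng1, Trp53inp1, Phlda3 and Zmat3. They were taken by gene name, a choice made with earlier results of these data known, and all 10 are among the 51812 genes listed for each sorted population. The libraries were RNA-seq of bone-marrow KLS cells (lineage-negative, c-Kit-positive, Sca-1-positive stem and progenitor cells) and of granulocyte-monocyte progenitors (GMPs), sorted from C57BL/6 mice. Every group carried 1 Cre allele, controls included (Cre +/-). In the untimed set, WT (Daxx +/+) and Daxx-KO (Daxx F/F) cells gave 2 libraries each per population, and the labels state neither the Cre line nor a time. At 3 weeks post-induction (w.p.i.) of the Mx1Cre line there were 3 WT, 3 Daxx-KO and 2 DKO (Daxx F/F Pu.1 F/F) libraries per population. A separate Pu.1 line, also Mx1Cre at 3 w.p.i., gave 2 WT (Pu.1 +/+) and 2 Pu.1-KO (Pu.1 F/F) libraries per population, and 24 w.p.i. gave 2 WT libraries per population that entered no comparison. Mx1Cre is switched on by interferon through pI:pC injection and so acts in all interferon-responsive cells, not in blood cells alone. The study describes RNA-seq of these populations from pI:pC-treated mice at 3 and 24 w.p.i. and from bone-marrow chimaeras, made in lethally irradiated recipients. Only the chimaeras are described outside those times, but the labels do not say that the untimed set came from them. No label gives an age. The third WT library of each timed population (unnumbered in KLS cells, c in GMPs) is an inferred assignment: no label names its column, which carries a control mark beside the named WT columns in another table. GMP columns at 3 w.p.i. were grouped through animal numbers that the KLS labels give, and those of the Pu.1 line and of 24 w.p.i. through control or treatment marks.

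The p53 protein is held at a low level in unstressed cells because its target MDM2, a ubiquitin ligase, marks it for degradation, and stress signals break this loop. Its targets include a brake on the cell cycle (p21, from Cdkn1a) and inducers of cell death (BAX, PUMA and NOXA, from Bax, Bbc3 and Pmaip1). In haematopoietic stem and progenitor cells p53 is known for restraining self-renewal and for removing damaged cells. Because p53 is controlled mainly as a protein, the Trp53 transcript does not measure its activity. In bulk libraries, fewer cells of a type and less RNA per cell cannot be told apart.

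The target genes lie on separate chromosomes or far apart. In GRCm38 coordinates, Trp53 spans chr11:69580359-69591873 on the plus strand, Cdkn1a chr17:29090976-29100727 on the plus strand, Mdm2 chr10:117688875-117710758 on the minus strand and Trp53inp1 chr4:11156431-11174379 on the plus strand. Bbc3 spans chr7:16308393-16318205 on the plus strand. All 10 genes are protein-coding. Cdkn1a shares 273 exon bases with AC167363.2, annotated on the other strand, and Bax shares 192 exon bases with Gm45808 on its own strand. Whether the counting used strand is not given in the sources used here, so small contributions from those genes cannot be separated.

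No promoter window of Pmaip1, Trp53inp1 or Zmat3 was searched, so nothing is said here about theirs. RefSeq promoter windows (GRCm38.p6, 250 bases before to 50 bases after an annotated start) were searched for 7 of the 10 genes, in 10 windows. They are shown because p53 acts through its response element, a pair of 10-base sites of 3 purines, C, 2 bases that are A or T, G and 3 pyrimidines, which reads the same on both strands. With at most 1 base between the sites, both C and G bases intact and at most 2 mismatches, 224 of 32851 windows of that length (0.682%) held a match. Among the genes here 3 windows held one, those of Cdkn1a, Ccng1 and Bax, and a match is a description of these letters, not a measured site. They follow in lower case with the match in capitals. The Cdkn1a window (chr17:29090729-29091028, plus strand) is that of its upstream start and had 1 mismatch, the Ccng1 window (chr11:40755237-40755536, minus strand) had 1 mismatch, and the Bax window (chr7:45466849-45467148, minus strand) had 2 mismatches with 1 spacer base.
Cdkn1a: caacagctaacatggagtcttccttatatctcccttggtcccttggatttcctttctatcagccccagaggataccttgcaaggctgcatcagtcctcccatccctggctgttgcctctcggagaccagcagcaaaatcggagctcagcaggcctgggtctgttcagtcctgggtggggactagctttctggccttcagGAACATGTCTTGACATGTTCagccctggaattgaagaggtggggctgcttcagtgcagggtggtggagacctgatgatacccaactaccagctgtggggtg
Ccng1: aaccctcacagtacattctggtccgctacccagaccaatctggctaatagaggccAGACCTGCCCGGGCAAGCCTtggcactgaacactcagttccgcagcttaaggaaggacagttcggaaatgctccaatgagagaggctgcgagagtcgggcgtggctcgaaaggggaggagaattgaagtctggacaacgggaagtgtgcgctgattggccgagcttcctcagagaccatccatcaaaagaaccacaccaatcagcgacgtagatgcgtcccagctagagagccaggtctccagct
Bax: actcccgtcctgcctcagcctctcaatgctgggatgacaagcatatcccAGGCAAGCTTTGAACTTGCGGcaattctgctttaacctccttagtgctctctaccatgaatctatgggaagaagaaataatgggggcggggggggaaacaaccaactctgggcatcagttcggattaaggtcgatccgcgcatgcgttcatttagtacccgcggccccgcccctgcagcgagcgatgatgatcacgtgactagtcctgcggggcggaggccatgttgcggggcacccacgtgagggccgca
The matches lie 31, 175 and 180 bases upstream of the respective starts. No match was found in the windows of Trp53, Mdm2, Bbc3 and Phlda3 or in the second Cdkn1a window, which says only that these letters are not in those windows.

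Depth, as whole reads recovered from the tables, differed most in the untimed set, whose libraries had 3388906 to 22647397 gene reads, against 10699070 to 19105576 in the other libraries compared. In untimed KLS cells both Daxx-KO libraries (6343790 and 22647397) were deeper than both WT libraries (3857858 and 3942149). In untimed GMPs depth overlapped between Daxx-KO (3388906 and 17307510) and WT (4938629 and 7067939). Daxx, the deleted gene, was 72.2 to 102 normalized counts in the 3 Daxx-KO libraries sorted as KLS 3 weeks after induction, and 423 to 505 in the 3 WT libraries. It was also lower in every other Daxx-KO and DKO library than in the WT libraries of the same table. Spi1, the gene of Pu.1, was not reduced in the DKO libraries of KLS cells (3330 and 2993, against 1669 to 2320 in WT), and in Pu.1-KO KLS cells (2920 and 1307) it overlapped with WT (2764 and 2080). In GMPs Spi1 was 2589 and 2707 in Pu.1-KO against 3395 and 3934 in WT, lower without overlap (limma adjusted p = 0.153), and in DKO (3846 and 2989) it overlapped with WT (3348 to 4604). A gene-level count covers the whole gene and does not check a deletion of part of it, so for the libraries labelled DKO and Pu.1-KO the Pu.1 genotype rests on the labels. Of the KLS markers (Kit, Ly6a, Cd34, Flt3, Mecom and Hlf) and the 8 GMP markers, none was at 0 throughout a table.

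Scaled to exon length and library depth (RPKM, gene reads divided by merged exon length and by the library's total of gene reads), Trp53 was the most abundant of the 10 transcripts in WT cells of both populations. In the 9 WT libraries of KLS cells Trp53 ranged from 26.5 to 42.3 RPKM with a median of 33.3, and no other gene reached its lowest value. Ccng1, which encodes cyclin G1, came next with a median of 15.5 RPKM (9.22 to 19.8), and Mdm2 had a median of 14.8 RPKM (11.9 to 19.2). Their ranges overlapped, so these neighbours were not separated. Trp53inp1, encoding a stress-induced p53-interacting protein, had a median of 10.02 RPKM (5.28 to 15.1). The death genes were lower, with medians of 4.43 RPKM for Bbc3, 2.90 RPKM for Bax and 1.21 RPKM for Pmaip1, and Cdkn1a had a median of 1.38 RPKM. At the bottom, with overlapping ranges, stood Zmat3, encoding a zinc-finger RNA-binding protein, at 0.915 RPKM and Phlda3, encoding an inhibitor of Akt signalling, at 0.736 RPKM.

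**Figure D1:**
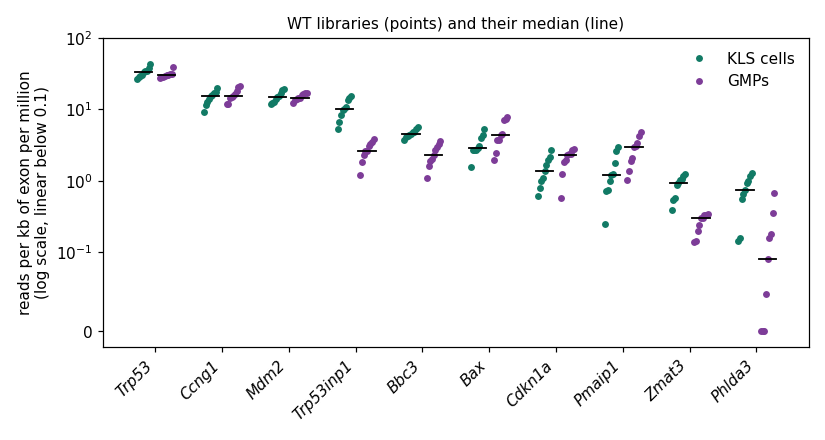
RPKM (log axis that is linear below 0.1) of the 10 genes in the 9 WT libraries of KLS cells and the 9 of GMPs; points are libraries and lines medians. Trp53 is highest in both, and Trp53inp1 is the gene whose KLS points all lie above its GMP points along with Bbc3 and Zmat3.

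In WT GMPs the top of the order was the same, with median RPKM of 30.2 for Trp53, 15.2 for Ccng1 and 14.4 for Mdm2. Trp53inp1 was lower there, at 2.62 RPKM (1.18 to 3.87), below every WT library of KLS cells. Bbc3 (1.08 to 3.55 RPKM) and Zmat3 (0.139 to 0.345 RPKM) likewise lay below all 9 KLS libraries. Phlda3 had a median of 0.0908 RPKM in GMPs, with at most 13 reads in any GMP library of any genotype. KLS cells and GMPs were normalized in separate tables, so these values are set side by side without a test.

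In every table, all matched libraries were fitted together with limma on log2(normalized count + 1), over genes with a mean of at least 10, and a gene was called at an adjusted p under 0.05 (Benjamini-Hochberg over all genes tested). Log2 differences below are on that scale, with the limma standard error. Over 10 comparisons, some of which share control libraries, 94 of the member tests could be made and 15 were called. All of these calls fell in comparisons where 15.4% to 33% of all genes tested were called. In the other comparisons that share was 0.0583% to 0.81%. Trp53, Cdkn1a, Bbc3 and Trp53inp1 were each called in 3 comparisons, Pmaip1 in 2 and Mdm2 in 1. Bax, Ccng1, Zmat3 and Phlda3 were called by limma in 0 comparisons. At an unadjusted p under 0.05 they passed in 0, 1, 0 and 1 comparisons, edgeR called none of them, and DESeq2 called Ccng1 in 1. Phlda3 was above the minimum in only 4 of the comparisons. The study calls its sequencing replicates biological, and animal numbers in the titles separate the mice of the timed KLS set. The timed GMP columns carry those animal numbers too, and the columns of both populations of the Pu.1 line share their numbers. Results of KLS cells and GMPs in these sets are thus not independent of each other. Sample labels outside the timed KLS set name no animals, and p-values there measure the spread between libraries.

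**Figure D2:**
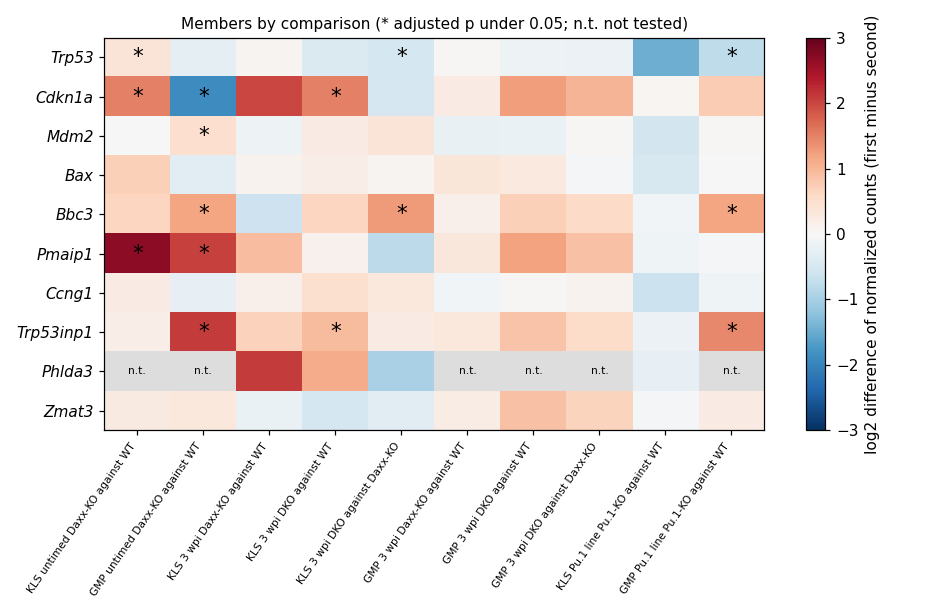
Log2 difference of normalized counts (colour, first group minus second) for the 10 genes (rows) in the 10 comparisons (columns); asterisks mark adjusted p under 0.05 by limma and n.t. marks genes under the minimum. Asterisks stand in the rows of Trp53, Cdkn1a, Mdm2, Bbc3, Pmaip1 and Trp53inp1, and the Cdkn1a row holds calls of both directions.

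In untimed KLS cells, Daxx-KO libraries had more Pmaip1, Cdkn1a and Trp53 transcript than WT. Pmaip1, encoding the BH3-only protein NOXA, was 22.4 and 32.7 normalized counts in WT and 116 and 275 in Daxx-KO. Both Daxx-KO libraries lay above both WT libraries, with a log2 difference of 2.68 ± 0.42 (SE) and adjusted p = 0.00246. Cdkn1a was 49.9 and 46.5 in WT and 126 and 155 in Daxx-KO. Its groups did not overlap either, and the log2 difference was 1.51 ± 0.26 (limma adjusted p = 0.00365). Trp53 was 747 and 729 in WT and 967 and 963 in Daxx-KO, a smaller difference of 0.39 ± 0.11 on the log2 scale (limma adjusted p = 0.0302), which did not pass by DESeq2 (0.0578) or without the filter on low values (0.0702).

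The calls made 3 of the 9 members tested, all higher, where 23.1% of all 13508 genes tested were called and 10.6% were called higher and 12.5% lower. The members' median log2 difference was 0.39, against 0.03 over all genes tested. Bbc3, encoding the BH3-only protein PUMA, was 61.9 and 68.9 in WT and 87.5 and 118 in Daxx-KO, without passing the test (limma adjusted p = 0.134). Bax was 55.05 and 31.0 in WT and 73.3 and 63.0 in Daxx-KO (limma adjusted p = 0.213). Mdm2 was nearly equal in the 4 libraries, between 648 and 660. Groups did not overlap for 7 of the 9 members tested, where 62.8% of all genes tested did not overlap. The calls rested on both Daxx-KO libraries: without Daxx-KO replicate 1 the adjusted p was 0.107 for Cdkn1a, 0.0586 for Pmaip1 and 0.196 for Trp53, and without Daxx-KO replicate 2 it was 0.171, 0.156 and 0.224. Trp53 was also lost without either WT library, at 0.0558 and 0.069. WT counts were small, with 29 and 27 reads for Cdkn1a and 13 and 19 reads for Pmaip1.

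In untimed GMPs, Daxx-KO libraries had more Trp53inp1, Pmaip1, Bbc3 and Mdm2 transcript and less Cdkn1a. Trp53inp1 was 137 and 108 in WT and 448 and 611 in Daxx-KO, a log2 difference of 2.10 ± 0.19 (limma adjusted p = 7.55e-05). Pmaip1 was 53.3 and 52.4 in WT and 148 and 332 in Daxx-KO. Its log2 difference was 2.05 ± 0.34 (limma adjusted p = 0.00183), and both genes kept their calls without any 1 of the 4 libraries. Bbc3 was 22.1 and 39.8 in WT and 71.0 and 67.3 in Daxx-KO, a log2 difference of 1.19 ± 0.37 (limma adjusted p = 0.0347). Mdm2 was 550 and 526 in WT and 716 and 813 in Daxx-KO, a log2 difference of 0.50 ± 0.11 (limma adjusted p = 0.00798).

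Cdkn1a took the other direction in these GMPs. It was 62.4 and 61.4 in WT and 16.2 and 15.9 in Daxx-KO, so that it fell by 1.88 ± 0.37 on the log2 scale (limma adjusted p = 0.00449). The Daxx-KO values rest on 8 and 39 reads. Of the 9 members tested, 4 were called higher and 1 lower, where 33% of 12744 genes tested were called, 16.6% higher and 16.5% lower. The members' median log2 difference was 0.33, against -0.01 over all genes. Trp53 was 740 and 782 in WT and 653 and 617 in Daxx-KO, and did not pass (limma adjusted p = 0.0843). Groups did not overlap for 8 of the 9 members, where 67.2% of all genes did not overlap. Bax, Ccng1 and Zmat3 were not called, and Phlda3 was listed with 1 read in 1 WT library and 0 in the other 3 libraries. Bbc3 lost its call when any 1 library was left out, with adjusted p from 0.0511 to 0.223, and by DESeq2 (0.0952). Cdkn1a and Mdm2 lost theirs without WT replicate 1 (0.0648 and 0.0514) or without WT replicate 2 (0.0667 and 0.0797).

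**Figure D3:**
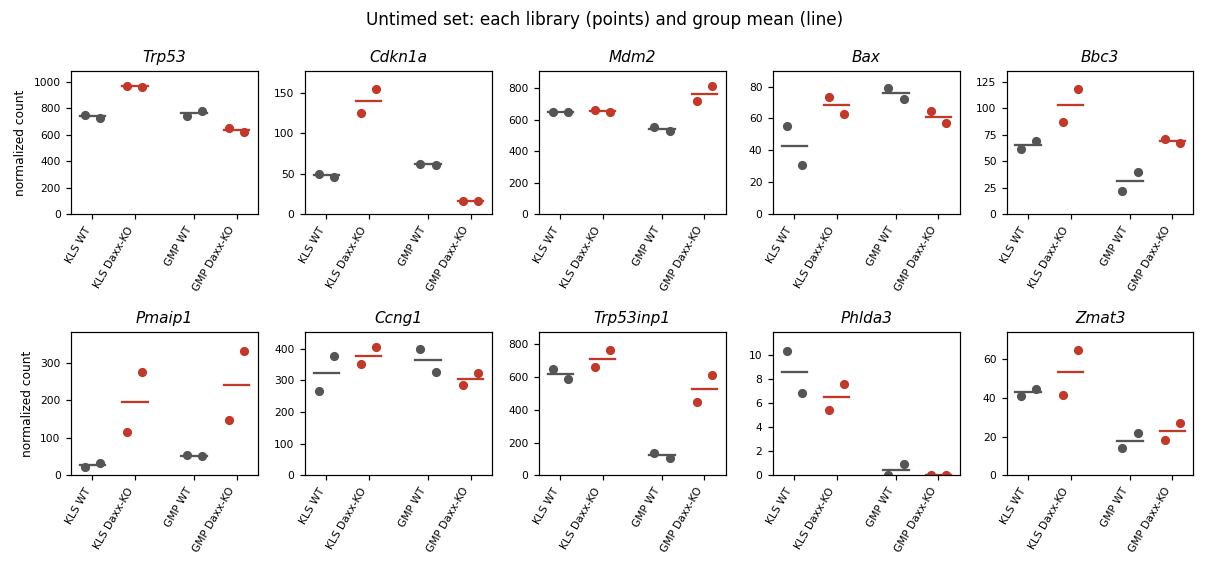
Normalized counts (vertical axes, from 0) of the 10 genes in the untimed KLS and GMP libraries of WT (grey) and Daxx-KO (red); points are libraries and lines group means. Cdkn1a is above WT in Daxx-KO KLS cells and below WT in Daxx-KO GMPs, while Pmaip1 is above WT in both populations.

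Marker sums moved with these differences. In untimed KLS cells the 6 KLS markers summed to 27100 to 28394 normalized counts in WT and 5621 to 6044 in Daxx-KO, and the 8 GMP markers to 9183 to 9287 and 16817 to 20393. Of these GMP markers 5 were called higher and 2 lower. Mecom averaged 24.7 in Daxx-KO and 11537 in WT, while Ly6a, encoding Sca-1, averaged 479 and 125. The 8 B-lineage markers, with Ms4a1 at 0, summed to 836 to 1784 in WT KLS cells and 148 to 167 in Daxx-KO. Of the 4 tested, 1 was called higher and 3 lower. In untimed GMPs the 8 mature neutrophil markers, none of which was at 0, summed to 4539 to 6242 in WT and 34032 to 49087 in Daxx-KO. Only 3 of the 7 tested were called higher by limma, S100a9, S100a8 and Ngp, while 1 was called lower. This sum therefore does not stand for a rise of every marker. The part of cell composition in the values of the p53 targets was not tested.

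Other genes of the pathway were called in both directions in the untimed set. Among the 32 further p53 targets in untimed KLS cells, 6 were called higher and 2 lower, with a median log2 difference of -0.01. Of all genes tested there, 10.6% were called higher and 12.5% lower. Dglucy, encoding a D-glutamate cyclase, averaged 746 in Daxx-KO and 181 in WT, a log2 difference of 2.04 (limma adjusted p = 3.3e-05). Perp, encoding a tetraspan membrane protein, averaged 76.4 and 10.3, and Epha2, a receptor tyrosine kinase, averaged 7.71 and 33.6. In untimed GMPs, 29 of the further targets were tested, with 6 called higher and 7 lower, where 16.6% of all genes tested were called higher and 16.5% lower. The highest of the named ones were Ddit4, Btg2 and Gadd45a, known as stress or growth-arrest genes, at log2 differences of 2.30, 1.74 and 1.62. Of the p53 regulators, 0 of 15 were called by limma in untimed KLS cells (3 at an unadjusted p under 0.05, and 0 by edgeR and by DESeq2), and in GMPs 2 were called higher and 3 lower, Chek1 among the latter at -1.33.

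Of the BCL-2 family outside the set, 1 of 8 tested was called higher and 2 lower in untimed Daxx-KO KLS cells, and 3 of 7 higher and 2 lower in GMPs, where 23.1% and 33% of all genes tested were called. Bcl2, the anti-apoptotic founder of its family, averaged 1601 in Daxx-KO KLS cells and 4158 in WT (log2 difference -1.38, limma adjusted p = 8.3e-05) and 906 and 2965 in GMPs (-1.76, limma adjusted p = 0.000197). The pro-apoptotic Bcl2l11 was called higher in KLS cells (0.72) and Bmf in GMPs (2.35), as was the anti-apoptotic Mcl1 in GMPs (0.86). Of 4 other CDK inhibitor genes tested, 1 was called higher in KLS cells, Cdkn2c at 1.85. In GMPs 1 was called higher and 1 lower, Cdkn1c, which averaged 119 in Daxx-KO and 2.20 in WT, and Cdkn1b at -0.66. Of 12 proliferation genes, 4 were called lower in Daxx-KO KLS cells and 10 in Daxx-KO GMPs, with 0 called higher in either, and their median log2 differences were -0.33 and -0.90.

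In the timed KLS set (3 w.p.i.), Cdkn1a was higher in every Daxx-KO library than in every WT library, without passing the test. It was 64.8, 45.9 and 37.0 in WT and 144, 311 and 167 in Daxx-KO, a log2 difference of 2.01 ± 0.40 with adjusted p = 0.105 by limma. DESeq2 on the recovered reads gave an adjusted p of 0.00028 and edgeR 0.143, so the call depended on the test. Phlda3 was 3.24, 11.5 and 3.00 in WT and 30.5, 17.0 and 28.2 in Daxx-KO (log2 difference 2.10 ± 0.73, limma adjusted p = 0.346), on 3 to 27 reads per library of the table. Bbc3 lay the other way, at 136, 104 and 118 in WT and 62.2, 84.3 and 86.8 in Daxx-KO (log2 difference -0.62 ± 0.28, limma adjusted p = 0.428). Groups did not overlap for these 3 of 10 members, where 18.2% of all 15200 genes tested did not overlap.

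By limma 0 of the 10 members were called in Daxx-KO against WT, where 0.257% of the genes tested were called, 0.184% higher and 0.0724% lower. At an unadjusted p under 0.05 there were 3, edgeR called 0 and DESeq2 called 1. Trp53inp1 was 860, 714 and 1244 in WT and 1093, 1961 and 1522 in Daxx-KO, with overlapping groups (limma adjusted p = 0.346). Pmaip1, called in the untimed set, was 35.7, 8.83 and 26.0 in WT and 13.6, 64.6 and 69.0 in Daxx-KO, so that Daxx-KO replicate 1 lay within the WT range. Trp53 (1671 to 2072 in Daxx-KO, 1788 to 1817 in WT) and Mdm2 (848 to 1028 and 993 to 1121) overlapped. B-lineage markers summed to 4246, 32987 and 1558 in Daxx-KO replicates 1, 2 and 3, against 468 to 757 in WT, with Ms4a1 at 0 throughout. Of these Daxx-KO libraries, replicate 2 also had the highest Cdkn1a (311) and Trp53inp1 (1961) and the lowest Phlda3 (17.0). The part of the B-lineage markers in the member values was not tested.

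At the same time in DKO KLS cells, Cdkn1a and Trp53inp1 were higher than in WT. Cdkn1a was 195 and 98.3 in DKO, both above the WT range, a log2 difference of 1.51 ± 0.45 (limma adjusted p = 0.0436). Trp53inp1 was 1702 and 1832 in DKO, a log2 difference of 0.95 ± 0.27 (limma adjusted p = 0.0384). These 2 of 10 members were called, both higher, where 17.6% of all genes tested were called and 9.24% were called higher and 8.4% lower. The members' median log2 difference was 0.36, against 0.00 over all genes. Trp53 was 1428 and 1243 in DKO, below the WT range (limma adjusted p = 0.0636), and Ccng1 was 981 and 1016 in DKO against 798, 646 and 721 in WT (limma adjusted p = 0.057). DESeq2 called both. Groups did not overlap for 6 of the 10 members, where 49.7% of all genes did not overlap.

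Both calls against WT sat close to the threshold. The Cdkn1a adjusted p was 0.0613 without WT replicate 1, 0.107 without WT replicate 2, 0.0782 without the unnumbered WT library and 0.343 without DKO replicate 1. For Trp53inp1 it was 0.11, 0.121, 0.175 and 0.133 without WT replicate 1, WT replicate 2, DKO replicate 1 and DKO replicate 2, and 0.0514 by edgeR. In the 2 DKO libraries the 8 mature neutrophil markers summed to 133264 to 164444 normalized counts, against 489 to 26457 in WT, and the 6 KLS markers to 22193 to 27559, against 48346 to 67465. Proliferation genes were called higher in 7 of 12 cases with a median log2 difference of 1.57, Plk1, Rrm2 and Ccnb1 among them. The part of these shifts in the Cdkn1a and Trp53inp1 values was not tested.

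Compared with Daxx-KO rather than WT, DKO KLS cells had more Bbc3 and less Trp53. Bbc3 was 221 and 159 in DKO and 62.2, 84.3 and 86.8 in Daxx-KO, a log2 difference of 1.27 ± 0.31 (limma adjusted p = 0.0226). Trp53 was 1428 and 1243 against 1671, 2072 and 2058, and fell by 0.53 ± 0.14 on the log2 scale (limma adjusted p = 0.0351). Cdkn1a overlapped between the genotypes (limma adjusted p = 0.516). Of the 10 members 1 was called higher and 1 lower, where 15.4% of all genes tested were called, 8.17% higher and 7.22% lower. Groups did not overlap for 5 of the 10, where 44.6% of all genes did not overlap. The Bbc3 adjusted p was 0.072 without Daxx-KO replicate 1 and 0.209 without DKO replicate 1. That of Trp53 was 0.0579, 0.114, 0.0963 and 0.154 without Daxx-KO replicate 2, Daxx-KO replicate 3, DKO replicate 1 and DKO replicate 2. The 8 mature neutrophil markers summed to 870 to 5816 in Daxx-KO and the 8 GMP markers to 17933 to 24016, against 133264 to 164444 and 114087 to 118427 in DKO. Of 8 neutrophil markers 6 were called higher, and of 8 GMP markers 4 were called higher and 2 lower. Their part in the Bbc3 and Trp53 values was not tested.

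Among the 32 further targets, DKO KLS cells had 5 called higher and 2 lower against WT, and 4 higher and 3 lower against Daxx-KO. Of all genes tested, 17.6% were called against WT, 9.24% higher and 8.4% lower. Against Daxx-KO 15.4% were called, 8.17% higher and 7.22% lower. Perp averaged 593 in DKO, 62.0 in Daxx-KO and 35.4 in WT, the largest difference from WT among those called (log2 4.36, limma adjusted p = 0.0033). Fas, encoding a death receptor, averaged 193 in DKO and 41.0 in Daxx-KO (log2 2.23, limma adjusted p = 0.00418). Of 15 p53 regulators tested in DKO against WT, 1 was called higher and 1 lower, beside that share of 17.6%. Pml, the scaffold of nuclear bodies, was the higher one at a log2 difference of 0.63. Trp53bp1, a DNA-damage adaptor that binds p53, was the lower one at -0.63. In Daxx-KO against WT, limma called 0 of the 32 further targets and 0.257% of all genes tested. Of these targets 8 passed an unadjusted p under 0.05, edgeR called 0 and DESeq2 called 2.

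**Figure D4:**
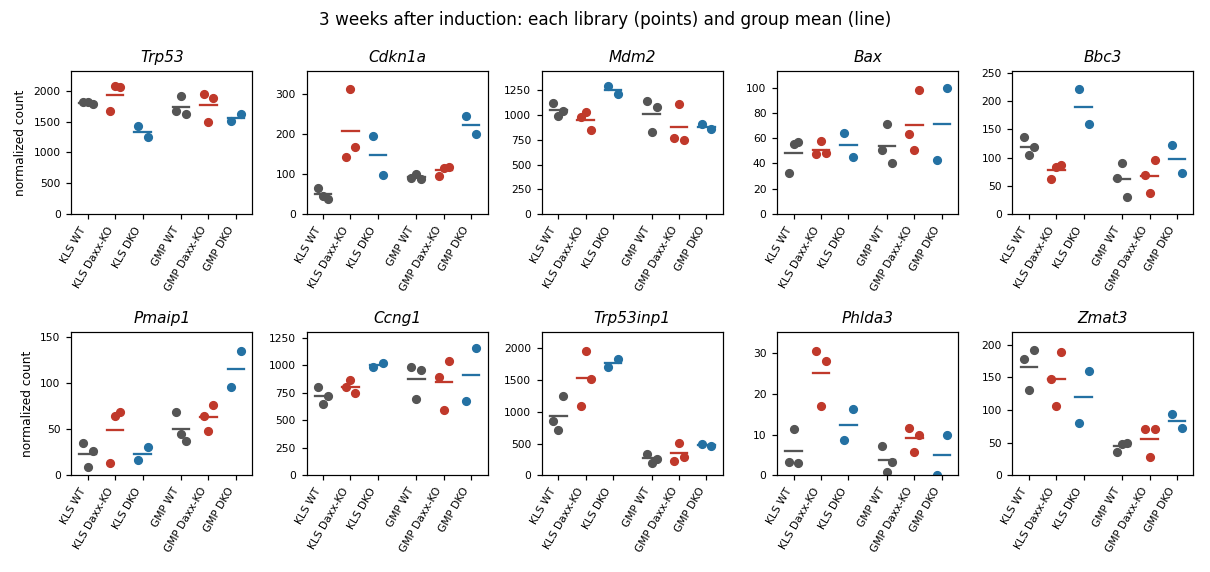
Normalized counts (vertical axes, from 0) of the 10 genes at 3 w.p.i. in KLS cells and GMPs of WT (grey), Daxx-KO (red) and DKO (blue); points are libraries and lines group means. All Cdkn1a points of Daxx-KO and DKO lie above the WT points in the KLS panels, whereas in GMPs the Daxx-KO points, 94.7 to 119, reach into the WT range.

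Libraries stood apart within genotypes in GMPs at 3 w.p.i. Chi-square per gene was 72.7 and 77.5 between WT b and the other WT libraries and 10.01 between those, and 82.4 and 89.5 between Daxx-KO b and the other Daxx-KO libraries and 11.4 between those. It was 91.2 between the DKO libraries. Mature neutrophil markers summed to 52631 in WT b against 281264 and 219210 in WT a and c, and to 272944 in Daxx-KO b against 37406 and 38155 in Daxx-KO a and c. B-lineage markers summed to 706 to 9409 in Daxx-KO and 202 to 613 in WT, with Ms4a1 at 0 and 5 of 7 tested at an unadjusted p under 0.05 (limma called 0, edgeR 0 and DESeq2 1). The part of these differences in the member values was not tested.

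In these libraries limma called 0 of the 9 members tested in any of the 3 comparisons, where 0.0948% of 13714 genes were called in Daxx-KO against WT, 0.292% in DKO against WT and 0.0583% in DKO against Daxx-KO. By direction these shares were 0.0656% higher and 0.0292% lower, 0.211% higher and 0.0802% lower, and 0.0583% higher and 0% lower. At an unadjusted p under 0.05 there were 0, 3 and 1 members, edgeR called 0 in each, and DESeq2 called 0, 1 and 1. Cdkn1a was the member that DESeq2 called. It was 90.4, 99.7 and 87.1 in WT, 94.7, 115 and 119 in Daxx-KO and 245 and 200 in DKO. The DKO libraries stood above all others, with log2 differences of 1.25 ± 0.27 from WT (adjusted p = 0.145 by limma, 0.00198 by DESeq2) and 1.02 ± 0.27 from Daxx-KO (adjusted p = 0.241 by limma, 0.0272 by DESeq2), while Daxx-KO and WT overlapped. Without WT b and Daxx-KO b, a choice made after seeing the data, limma called 0 members in each comparison and Cdkn1a differed by 1.31 from WT (adjusted p = 0.171) and by 1.05 from Daxx-KO (adjusted p = 0.173).

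Pmaip1, Trp53inp1 and Zmat3 had DKO values above all WT values in these GMPs without passing. Pmaip1 was 96.4 and 135 in DKO against 68.6, 45.01 and 37.0 in WT (limma adjusted p = 0.412). Trp53inp1 was 486 and 464 in DKO against 332, 202 and 261 in WT (limma adjusted p = 0.604). With Cdkn1a that made 4 of 9 members without overlap, where 18.6% of all genes tested did not overlap. For DKO against Daxx-KO, 3 of 9 did not overlap (20.7% of all genes), and for Daxx-KO against WT, 0 of 9 (8.1% of all genes). The members' median log2 difference was 0.72 for DKO against WT and 0.21 for Daxx-KO against WT, each against -0.01 over all genes. Bbc3 varied widely within genotypes, from 30.5 to 90.9 in WT and from 37.1 to 95.9 in Daxx-KO. Outside the set, Bcl2l11, encoding the BH3-only protein BIM, averaged 2366 in Daxx-KO, 1564 in DKO and 399 in WT, and was called higher in both genotypes (limma adjusted p = 0.000763 and 0.0144), the 1 of 8 BCL-2 genes called in each. In DKO against Daxx-KO limma, edgeR and DESeq2 called 0 of 8, and 2 had an unadjusted p under 0.05.

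In the Pu.1 line, taking KLS cells first, 0 of the 10 members were called by limma, where 0.81% of 23459 genes tested were called, 0.469% higher and 0.341% lower. At an unadjusted p under 0.05 there was 1 member, and edgeR and DESeq2 called 0. That member was Trp53, at 2446 and 1924 in WT and 1213 and 504 in Pu.1-KO. Both Pu.1-KO libraries lay below both WT libraries, with a log2 difference of -1.47 ± 0.60 (limma adjusted p = 0.119). The median over all genes was 0.12 on the log2 scale with the deposited scaling and 0.27 after TMM rescaling, so levels in these libraries are relative to a shifted centre. The Pu.1-KO libraries differed from each other, with Mdm2 at 1207 and 501 and Ccng1 at 694 and 278. With each library left out in turn, which leaves 1 library in a group, the Trp53 log2 difference ranged from -2.1 to -0.84. Cdkn1a was 190 and 93.7 in WT and 189 and 103 in Pu.1-KO, so that its values overlapped. Trp53 was the 1 member of 10 whose groups did not overlap, where 65.6% of all genes did not overlap. The 6 KLS markers summed to 44387 to 53717 in WT and 11831 to 27601 in Pu.1-KO, with 1 called lower and 0 higher. Their part in the member values was not tested.

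In GMPs of the Pu.1 line, Pu.1-KO libraries had more Trp53inp1 and Bbc3 and less Trp53. Trp53inp1 was 199 and 167 in WT and 408 and 609 in Pu.1-KO, a log2 difference of 1.45 ± 0.28 (limma adjusted p = 3.4e-05). Bbc3 was 76.2 and 56.1 in WT and 140 and 158 in Pu.1-KO, a log2 difference of 1.18 ± 0.40 (limma adjusted p = 0.0258). Trp53 was 1482 and 1734 in WT and 763 and 1174 in Pu.1-KO, and fell by 0.76 ± 0.24 on the log2 scale (limma adjusted p = 0.0145). Cdkn1a was 113 and 112 in WT and 183 and 201.2 in Pu.1-KO, without overlap and without passing (limma adjusted p = 0.104). Of the 9 members tested 2 were called higher and 1 lower, where 17.6% of 19337 genes were called, 9.15% higher and 8.49% lower. Groups did not overlap for 4 of the 9, where 65% of all genes did not overlap.

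Leaving out WT libraries changed these calls. Without WT replicate a the adjusted p of Trp53 was 0.293 and that of Bbc3 0.141, and without WT replicate b those of Trp53, Bbc3 and Trp53inp1 were 0.656, 0.587 and 0.241. The 8 mature neutrophil markers summed to 27800 to 34665 in WT and 154202 to 157571 in Pu.1-KO, and the 8 GMP markers to 264478 to 289182 and 106554 to 188439, and their part in the member values was not tested. Among the 32 further targets 4 were called higher, led by Fas, Sulf2 and Perp at log2 differences of 1.81, 1.77 and 1.70, and 3 were called lower. Of all genes tested, 17.6% were called, 9.15% higher and 8.49% lower. Of 16 p53 regulators tested limma called 3, all lower, beside that share of 17.6% over all genes. They were the damage kinase genes Atr, Chek2 and Atm, at -1.03, -0.81 and -0.73. Trp63, the p63 relative of Trp53, was called higher in both populations of the Pu.1 line. Its log2 differences were 2.09 in KLS cells (limma adjusted p = 0.0462) and 1.39 in GMPs (limma adjusted p = 0.00223). Pu.1-KO libraries also had more genes above 0 than WT, 29391 and 30291 against 25662 and 27548 in KLS cells. In GMPs these were 27760 and 26554 against 26134 and 24539. The part of this wider detection in the Trp63 values was not tested.

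**Figure D5:**
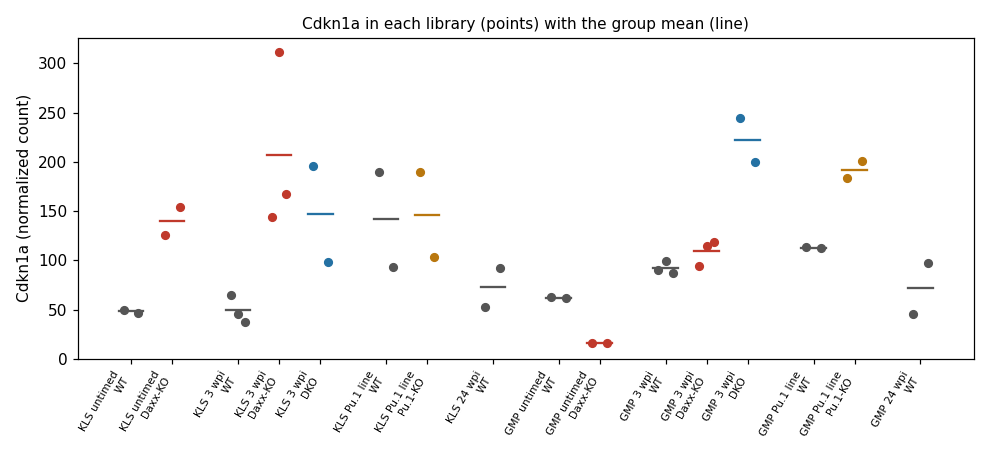
Cdkn1a normalized counts (vertical axis, from 0) in every library, grouped by table and genotype; points are libraries and lines group means, and each table was scaled separately. Untimed Daxx-KO GMPs hold the lowest values, 16.2 and 15.9, and the timed Daxx-KO KLS libraries the highest, 311.

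The remaining lists were counted in the same way. In Daxx-KO against WT of KLS cells at 3 w.p.i., limma called 0 of 15 p53 regulators, 9 BCL-2 genes, 4 CDK inhibitors, 12 proliferation genes and the p53 family pair, where 2, 2, 0, 1 and 0 of them had an unadjusted p under 0.05. There edgeR called 0 and DESeq2 2, both in the BCL-2 family. In DKO, 0 of 9 BCL-2 genes were called by limma against either genotype (unadjusted p under 0.05 for 2 against WT and 1 against Daxx-KO, with 0 called by edgeR in each and 0 and 1 by DESeq2). Cdkn2d, a CDK inhibitor gene, was the 1 of 4 called there, higher by 1.65 than in WT and by 1.56 than in Daxx-KO. Against Daxx-KO, 3 of 15 regulators were called higher and 1 lower in DKO, where 15.4% of all genes tested were called. Of 12 proliferation genes limma called 0 there, although 5 had an unadjusted p under 0.05 and DESeq2 called 1 (edgeR 0). In GMPs at 3 w.p.i. limma, edgeR and DESeq2 each called 0 of 15 regulators, 3 CDK inhibitors and 12 proliferation genes in the 3 comparisons, with none at an unadjusted p under 0.05. Of 31 further targets limma and edgeR called 0 in each, DESeq2 called 0, 2 and 2, and 4, 2 and 4 had an unadjusted p under 0.05 (Daxx-KO against WT, DKO against WT and DKO against Daxx-KO). In Pu.1-KO KLS cells 0 of 16 regulators, 11 BCL-2 genes, 5 CDK inhibitors and 12 proliferation genes were called by each of these tools (1, 0, 0 and 4 at an unadjusted p under 0.05). Of the 32 further targets limma called 0 there (5 at an unadjusted p under 0.05), and edgeR and DESeq2 called 1. In Pu.1-KO GMPs limma called Bcl2 lower (-0.77, 1 of 10 BCL-2 genes), Cdkn2d higher (0.90, 1 of 4) and Aurkb lower (-0.73, 1 of 12). Of all genes tested there, 17.6% were called.

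Over all libraries Cdkn1a did not vary together with most other members. With each gene centred on its table's mean, on the log2(normalized count + 1) scale over 36 libraries, Pearson's r with Cdkn1a was 0.38 for Bax, 0.33 for Ccng1, 0.25 for Pmaip1 and 0.20 for Trp53inp1. It was 0.13 for Phlda3, 0.12 for Trp53, 0.02 for Bbc3, -0.05 for Mdm2 and -0.17 for Zmat3. The most like of 11643 other genes tested in every table were Tmsb10 (r = 0.71), Hpse (0.69), Ptch1 (0.69), Jakmip1 (0.69) and Kif1c (0.68). Libraries of a table share their scaling and, in part, their genotype, so these values are descriptions without a test.

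Late after induction (24 w.p.i.) the members could be read in WT cells. In KLS cells Trp53 was 3624 and 4039 normalized counts, Mdm2 1495 and 1655, Ccng1 1666 and 1420 and Trp53inp1 1679 and 1513. Cdkn1a was 52.8 and 92.5 in KLS cells and 45.9 and 97.8 in GMPs, a spread between WT libraries of the same kind that is wider than in the untimed set. Phlda3 was 47.5 and 33.8 in KLS cells and listed at 0 in both GMP libraries.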

How the data were processed

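RNA-seq was made from sorted bone-marrow KLS cells and GMPs by the authors. The labels name the Ovation SoLo kit throughout, whereas the study's methods keep it for transplanted animals and give a SMARTer stranded pico-input kit for cells sorted after induction, and this was not resolved. The authors trimmed reads with cutadapt 1.13, aligned them with STAR 2.5.3 to mm10 and normalized gene counts with DESeq2 1.16.1, and they deposited a signal per gene and library, the gene count divided by 1 size factor (GENCODE M14 per the study's methods). All values above 0 were whole multiples of a library's smallest step (tolerance 0.01 reads), which gave the gene reads per library. Of 59 columns in the gene tables, 36 could be matched to a sample or group by name. The other 23 (MPP, LT-HSC and most 24 w.p.i. columns) and the tables of repeat elements were not used here, and where only a column's ending or animal number gave the group, the library has a letter, or is called unnumbered, in place of a replicate number.

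Each of the 6 tables compared was fitted with limma 3.58.1, with its intensity trend for the variance, after adding a pseudocount of 1 and taking log2. Genes had to average at least 10 in the table and were called at an adjusted p under 0.05. Alternatives were a pseudocount of 5, no filter, TMM rescaling, edgeR 4.0.16 and DESeq2 1.42.0 on the recovered reads, each library left out, a replicate block and, chosen after seeing the data, WT b and Daxx-KO b of timed GMPs left out together. The fits were first run on simulated counts with known changes. RPKM used merged exons of GENCODE M21 (GRCm38, the build of mm10), and coordinates come from it. All 10 members are named in every comparison. Of the other pathway lists, counts are given for the comparisons. Only some of the marker lists are given beside the results, and others moved too. At most 3 called genes with the largest change per list and comparison are named. The members and lists were chosen with earlier results of these data known. Replicate libraries differed by more than sampling noise (smallest chi-square per gene 5.93), so none was counted as a duplicate.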

Additional observations from a re-analysis of the deposited data

Results flagged for a closer look

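In the untimed set, 3 genes lay above WT in both Daxx-KO libraries of KLS cells and below WT in both Daxx-KO libraries of GMPs. Over all genes tested, groups did not overlap for 62.8% in KLS cells and 67.2% in GMPs. How many of all genes separated in opposite directions was not counted, so these 3 are not shown to stand out. Their log2 differences were 1.51 in KLS cells and -1.88 in GMPs for Cdkn1a, 0.39 and -0.26 for Trp53, and 0.70 and -0.31 for Bax. Cdkn1a passed the test in both populations, Trp53 in KLS cells only and Bax in neither. The difference between the populations was not tested, because KLS cells and GMPs were normalized in separate tables.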

How the results depend on the processing

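Over the alternatives and left-out libraries, 429 values of 41 member differences were followed. Of these, 374 kept their direction and side of the threshold, 52 kept direction and changed side, and 3 changed sign. The sign changes were Mdm2 in untimed KLS cells, a difference near 0 (-0.0015 with TMM rescaling, -0.00181 by edgeR, -0.0103 by DESeq2). DESeq2 called 1 member where limma called 0 in Daxx-KO against WT (KLS, 3 w.p.i.) and in both DKO comparisons of GMPs at 3 w.p.i. In DKO against WT (KLS, 3 w.p.i., 2 called) the number was 0 without a filter, 1 by edgeR and 4 by DESeq2, and in DKO against Daxx-KO (2 called) it was 1 without a filter. Without a filter more genes entered the adjustment, and the cause of the other changes was not tested. With each library left out in turn, the members called ranged from 0 to 2 (3 called) in untimed KLS cells, 2 to 4 (5 called) in untimed GMPs, 0 to 1 in both DKO comparisons of KLS cells, 0 to 3 in KLS cells and 0 to 3 in GMPs of the Pu.1 line. A fit that leaves 1 library in a group assumes it varies like the others.

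The labels share replicate numbers 1 and 2 in 3 of the tables. Same-numbered libraries did not deviate together (r = -0.01 in untimed KLS cells, -0.11 in untimed GMPs, and between -0.14 and 0.13 in KLS cells at 3 w.p.i.), so the numbers were taken as names. With a replicate block, 3 and 4 members were called in the untimed tables (Bbc3 was lost in GMPs at 0.0525), and 0, 1 and 0 in Daxx-KO against WT, DKO against WT and DKO against Daxx-KO of KLS cells at 3 w.p.i.

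Counts over all genes moved by more than 1.5 times in many cases. Alternatives gave 1751 to 3343 (3118 in the reported fit) in untimed KLS cells, 30 to 342 (39) and 1304 to 2963 (2340) in Daxx-KO against WT and DKO against Daxx-KO of KLS cells at 3 w.p.i., 11 to 89 (13), 30 to 263 (40) and 13 to 280 (8) in Daxx-KO against WT, DKO against WT and DKO against Daxx-KO of GMPs, and 151 to 1920 (190) in KLS cells of the Pu.1 line. With 1 library left out, the counts were 346 to 2839 in untimed KLS cells, 2044 to 4391 (4209) in untimed GMPs, 4 to 134, 568 to 2971 (2681) and 667 to 2455 in Daxx-KO against WT, DKO against WT and DKO against Daxx-KO of KLS cells at 3 w.p.i., 4 to 11, 0 to 87 and 0 to 71 in those of GMPs, 14 to 7962 in KLS cells and 151 to 8155 (3412) in GMPs of the Pu.1 line. The shares of all genes called that stand beside the member counts move with them. In GMPs of the Pu.1 line edgeR's scaling moved the median of all genes from 0.00 to 0.11 (log2). Genes under about 30 reads, such as Phlda3 and WT Pmaip1, are limited by depth.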
